A study of Homo sapiens with 18 samples.

Results

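The KMT2 and SETD1 genes KMT2A, KMT2B, KMT2C, KMT2D, KMT2E, SETD1A and SETD1B were followed by ATAC-seq, in which a transposase inserts sequencing adapters into accessible DNA. They were taken by symbol from a table of 54425 genes, and all 7 passed the filter on low counts. The cells were HEK293T, a human embryonic kidney line, in 3 settings with fusion constructs of the translocation t(4;11), where MLL is KMT2A and AF4 is AFF1. MLL-AF4 cells carried inducible MLL-AF4, AF4-MLL cells carried inducible AF4-MLL, and co-expression cells carried constitutive MLL-AF4 together with inducible AF4-MLL. Each setting was sampled on day 3 and on day 28 with 3 libraries, which gave 18 libraries in 6 groups. All inducible constructs were switched on with 1 µg/ml doxycycline for 48 h, and the settings were compared with each other because no mock libraries are among those analysed here.

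The constructs were delivered in Sleeping Beauty transposon vectors to a cell population and not to a single clone. In co-expression cells the AF4-MLL vector was introduced transiently and its expression was ended after day 3. The MLL-AF4 construct holds the 5′ part of the KMT2A coding sequence and the AF4-MLL construct the longer 3′ part. Of AFF1, the MLL-AF4 construct holds most exons and the AF4-MLL construct only the first few. In a count per gene, reads from vector DNA and reads from the chromosomal KMT2A gene cannot be told apart. The 6 other members are in neither construct. In bulk libraries, a larger share of cells with accessible DNA and more insertions per cell cannot be told apart either.

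Members of the family place methyl groups on lysine 4 of histone H3 (H3K4), a mark of active promoters and enhancers, as the catalytic subunits of complexes that share a common core. KMT2A and KMT2B act mainly at promoters and bind unmethylated CG dinucleotides through a CXXC domain, KMT2C and KMT2D methylate enhancers, and SETD1A and SETD1B provide much of the H3K4 trimethylation at promoters. KMT2E is a divergent relative with little or no methyltransferase activity of its own. Fusions of KMT2A with AFF1 are found in infant acute lymphoblastic leukemia.

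The 6 members with a RefSeq promoter had more CG before their start than most genes, between percentiles 76.7 and 99.8 of all promoters. The search was for the letters CG, which read the same on both strands, in the 250 bases before the start of each gene (RefSeq, GRCh38.p14). Of 27305 promoters of this length 93.6% held at least 1 CG and the median number was 11. The members had 31 in KMT2A, 40 in KMT2B, 48 in KMT2C, 30 in KMT2E, and 23 in both KMT2D and SETD1A. SETD1B was not among the promoters used. The comparisons below use counts per gene and not counts on these promoters. Shown here, 5′ to 3′ in the direction of the gene and with each CG in capitals, are the promoter of KMT2A (plus strand, chr11:118436242-118436491), that of KMT2C with the most CG (minus strand, chr7:152436004-152436253), and that of SETD1A with the fewest together with KMT2D (plus strand, chr16:30957504-30957753).
KMT2A: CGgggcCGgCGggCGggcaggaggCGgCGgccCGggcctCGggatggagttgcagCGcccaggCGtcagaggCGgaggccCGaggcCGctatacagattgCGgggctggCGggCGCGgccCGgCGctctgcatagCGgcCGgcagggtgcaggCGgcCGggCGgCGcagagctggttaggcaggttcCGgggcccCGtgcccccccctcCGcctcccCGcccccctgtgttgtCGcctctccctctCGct
KMT2C: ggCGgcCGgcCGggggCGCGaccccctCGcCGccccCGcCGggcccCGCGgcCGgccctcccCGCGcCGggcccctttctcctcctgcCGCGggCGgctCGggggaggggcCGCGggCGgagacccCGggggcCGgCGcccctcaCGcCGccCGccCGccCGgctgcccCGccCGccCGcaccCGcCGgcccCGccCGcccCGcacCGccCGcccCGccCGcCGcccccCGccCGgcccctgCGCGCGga
SETD1A: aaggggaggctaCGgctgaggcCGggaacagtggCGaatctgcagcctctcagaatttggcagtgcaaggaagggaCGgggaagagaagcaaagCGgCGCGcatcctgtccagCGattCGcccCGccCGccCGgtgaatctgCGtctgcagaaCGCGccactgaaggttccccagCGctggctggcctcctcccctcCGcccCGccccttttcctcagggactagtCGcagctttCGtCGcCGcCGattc

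The 18 libraries held between 442159 and 3539937 counts (median 1254820), of which 297567 to 1116385 fell on nuclear genes. Mitochondrial genes took 32.7% to 45.6% of the counts on day 3 and 63.6% to 68.5% on day 28, so that day and mitochondrial share cannot be told apart in a comparison of days. The members together received from 143 to 607 counts per library. All 10 markers of HEK293T cells were tested, with mean counts from 13.1 to 97.9 and a sum of 0.0449% to 0.0726% of nuclear counts. Of 7 blood markers 5 were tested, with a sum of 0.0125% to 0.0202%, and none of either list was at 0 in all libraries. These markers are levels of accessible DNA and not of RNA. Levels are given as counts per 1000000 counts of the TMM-scaled library size (CPM), mean ± SD over 3 libraries, and differences as log2 values from edgeR's quasi-likelihood fit with their standard error (SE). The threshold for a call was 0.05 on the p-value adjusted over 17660 tested genes by Benjamini and Hochberg.

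The members differed in how many counts they received and in how much they varied. KMT2A (ENSG00000118058, chr11:118436492-118526832) had the most, with 65.3 CPM averaged over the 18 libraries, ahead of KMT2D (ENSG00000167548, chr12:49018978-49060794) with 45.5 CPM and SETD1A (ENSG00000099381, chr16:30957754-30984664) with 42.5 CPM. KMT2C (ENSG00000055609, chr7:152134925-152436003) had 34.7 CPM and KMT2E (ENSG00000005483, chr7:105014205-105115019) had 22.8 CPM. KMT2B (ENSG00000272333, chr19:35718003-35738878) and SETD1B (ENSG00000139718, chr12:121790155-121832656) were lowest, with 16.8 and 15.4 CPM. The order of KMT2A depended on the setting. In MLL-AF4 cells it had 35.7 CPM on day 3, beside 39.6 CPM for KMT2D and 37.4 CPM for SETD1A, and 45.4 CPM on day 28, beside 51.1 CPM for KMT2D. Per kilobase of gene span, on the mean over all libraries, the order was another one. SETD1A led with 1.58 CPM per kb, followed by KMT2D with 1.09, KMT2B with 0.804, KMT2A with 0.723, SETD1B with 0.362, KMT2E with 0.226 and KMT2C, the longest of them, with 0.115. Over 13548 protein-coding genes the CPM hardly followed the span (Spearman's rho 0.03 across genes, which are not independent), and the region counted for each gene is not given in the sources used here. In RefSeq, SETD1A overlaps no other gene and each other member overlaps 1 or 2 (KMT2E overlaps SRPK2 and KMT2B overlaps IGFLR1, for example), with which reads may be shared. The coefficient of variation over the 18 libraries was 38.2% for KMT2A and between 13.0% for SETD1A and 27.5% for KMT2C among the others. The highest of the 6 group means was 2.70 times the lowest for KMT2A and between 1.24 times for KMT2E and 1.77 times for KMT2C among the others.

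**Figure D1:**
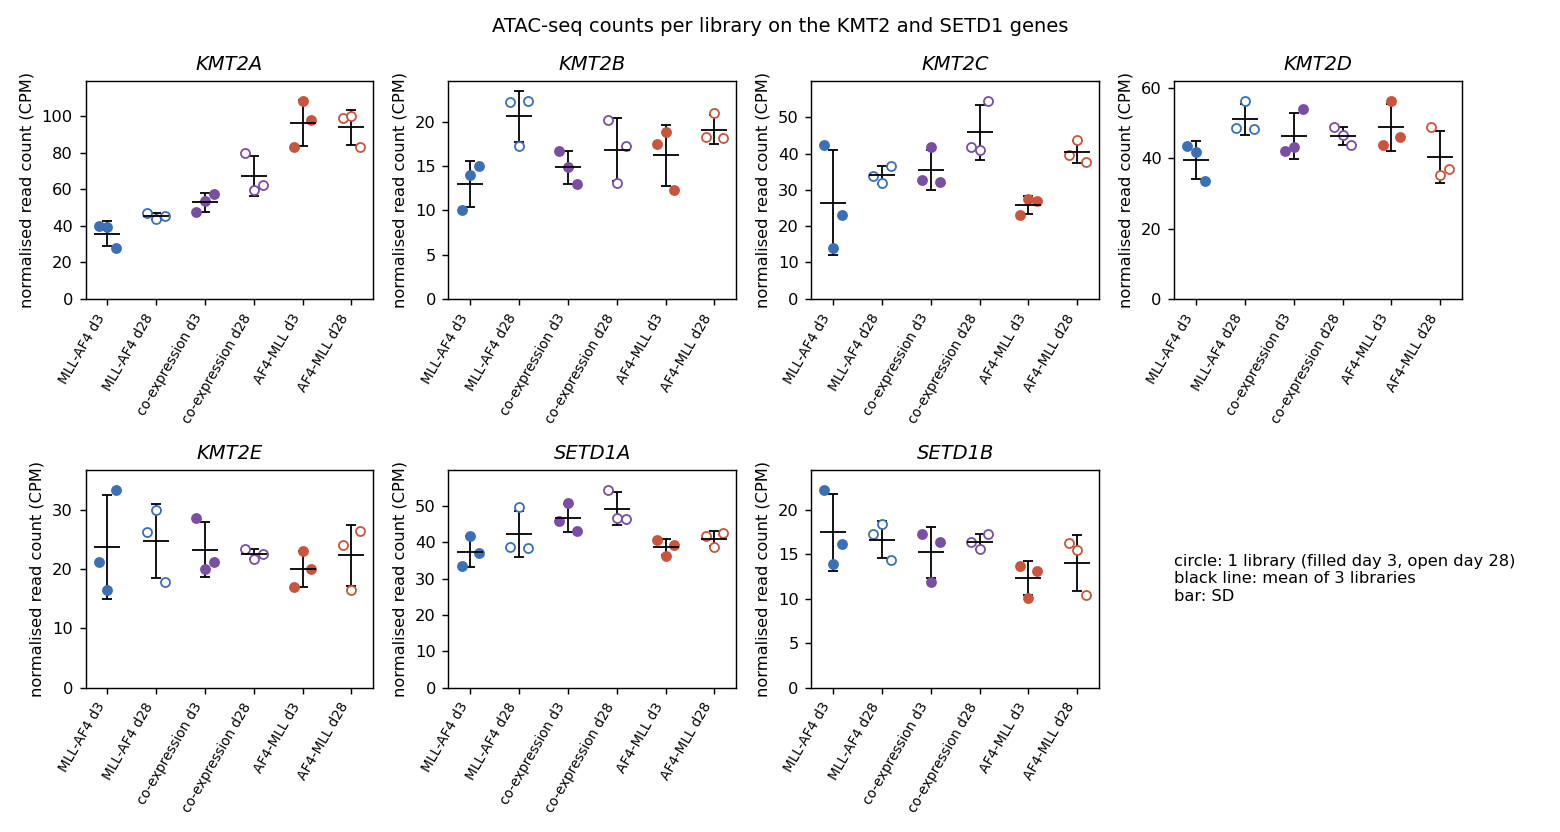
Normalised read count in CPM (y axis, from 0) for each member in the 6 groups (x axis, setting and day); each circle is 1 library, filled for day 3 and open for day 28, the black line is the mean and the bar the SD of 3 libraries. KMT2A steps up from MLL-AF4 cells (35.7 and 45.4 CPM) over co-expression cells (52.8 and 67.4 CPM) to AF4-MLL cells (96.5 and 94.0 CPM), while the group means of the other members lie closer together.

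KMT2A, the gene from which both fusions take their MLL part, was the member that differed between construct settings. It was highest in AF4-MLL cells, lowest in MLL-AF4 cells and intermediate in co-expression cells on both days. On day 3 the libraries of AF4-MLL cells had 83.3, 108 and 97.9 CPM, those of co-expression cells 47.3, 53.7 and 57.4 CPM, and those of MLL-AF4 cells 40.2, 39.3 and 27.7 CPM. On day 28 they had 99.0, 99.99 and 83.0 CPM in AF4-MLL cells, 79.9, 59.8 and 62.5 CPM in co-expression cells, and 47.0, 43.5 and 45.6 CPM in MLL-AF4 cells. On neither day did any pair of settings overlap. The raw counts behind these values ran from 24 in an MLL-AF4 library of day 3 to 181 in an AF4-MLL library of day 28.

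KMT2A was higher in AF4-MLL than in MLL-AF4 cells, by 1.39 on the log2 scale on day 3 (SE 0.17, 95% interval 1.05 to 1.72, adjusted p = 1.7e-10). On day 28 the difference was 1.06 (SE 0.13, 95% interval 0.80 to 1.33, adjusted p = 7.5e-10). By p-value KMT2A ranked 1 of 17660 genes on day 3 and 2 on day 28. It was the only member called, beside 0.142% of all genes on day 3 and 0.0793% on day 28. Of the 6 other members, 3 had a positive difference on day 3 and 1 on day 28, and their median differences were -0.01 and -0.15, beside medians of 0.00 over all genes on both days. Including KMT2A, 3 members had groups that did not overlap on day 3 and 2 on day 28, beside 14% and 13.4% of all genes.

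Co-expression cells lay below AF4-MLL cells in KMT2A, by -0.83 on day 3 (SE 0.14, 95% interval -1.09 to -0.56, adjusted p = 9.1e-06) and by -0.45 on day 28 (SE 0.12, 95% interval -0.68 to -0.21, adjusted p = 0.029). KMT2A was again the only member called, where 1.28% and 1.69% of all genes were. The day 28 call depended on single libraries, and was lost when any of 4 libraries was left out: AF4-MLL replicate 1 (-0.41) or 2 (-0.40), or co-expression replicate 2 (-0.34) or 3 (-0.41). Including KMT2A, 3 members did not overlap between these groups on day 3 and 2 on day 28, beside 16.5% and 16.8% of all genes.

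Against MLL-AF4 cells, co-expression cells had a KMT2A difference of 0.56 on day 3 (SE 0.19, 95% interval 0.20 to 0.93), which was not called (adjusted p = 0.088), so that 0 members were called where 1.81% of all genes were. At an unadjusted p under 0.05, KMT2A was the 1 member that passed, beside 14.5% of all genes, and with DESeq2 0 members passed the adjusted threshold. On day 28 the difference was 0.62 (SE 0.15, 95% interval 0.33 to 0.90, adjusted p = 0.0072), and KMT2A was the 1 member called beside 1.17% of all genes. That call was lost without replicate 2 of the MLL-AF4 cells (0.58, adjusted p = 0.098) or replicate 1 of the co-expression cells (0.43, adjusted p = 0.36). On each day 2 members did not overlap between these groups, beside 19% and 16% of all genes.

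**Figure D2:**
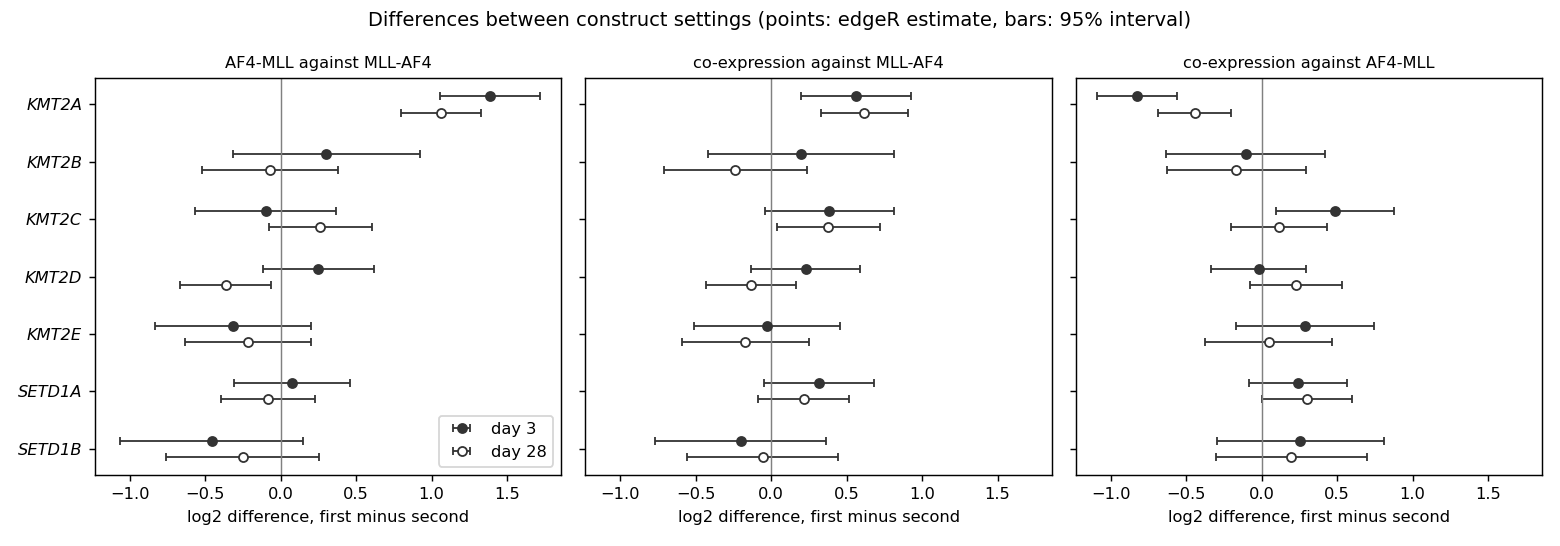
Log2 difference in normalised count (x axis) of each member (y axis) for the 3 pairs of settings, first minus second; points are edgeR estimates, filled for day 3 and open for day 28, and bars are 95% intervals. For KMT2A all 6 intervals leave out 0, from 1.39 in AF4-MLL against MLL-AF4 cells on day 3 to -0.83 in co-expression against AF4-MLL cells, while for the other members most intervals hold 0.

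The same order appeared when KMT2A was set against its own family within each library, a measure that needs no scaling between libraries. KMT2A took 37.3% ± 2.1 (SD, n = 3) of the counts on the 7 genes in AF4-MLL cells on day 3 and 34.6% ± 2.2 on day 28. In co-expression cells its share was 22.5% ± 1.9 and 25.4% ± 2.3, and in MLL-AF4 cells 18.5% ± 3.4 and 19.4% ± 1.5. The lowest AF4-MLL library (32.5%) lay above the highest library of both other settings (28.0%), whereas co-expression and MLL-AF4 cells overlapped on day 3 (20.5% against 21.7% at their nearest ends). With the days pooled as strata, AF4-MLL cells exceeded MLL-AF4 cells by 17.02 percentage points in an exact two-sided permutation test (p = 0.005, the smallest that its 400 arrangements allow). Adjusted over the 28 share comparisons this gave 0.07. Co-expression cells exceeded MLL-AF4 cells by 4.997 points (exact permutation p = 0.01, adjusted 0.093) and lay below AF4-MLL cells by -12.0 points (exact permutation p = 0.005, adjusted 0.07). With this smallest p, a share difference between settings could pass 0.05 after adjustment over 28 comparisons only if several comparisons had p-values as low. Adjusted values just above 0.05 therefore say little. The 6 other members summed to between 158 ± 15.4 CPM in MLL-AF4 cells on day 3 and 197 ± 11.0 CPM in co-expression cells on day 28.

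**Figure D3:**
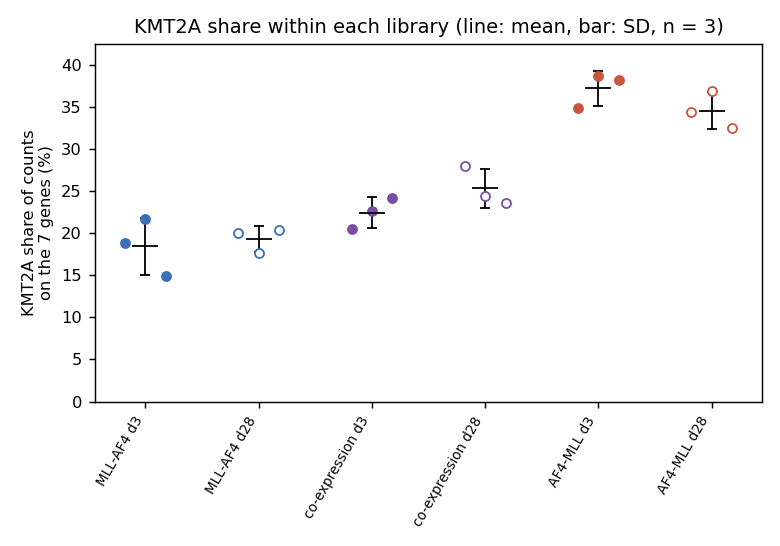
Share of the counts on the 7 member genes that fell on KMT2A (y axis, percent, from 0) in each library of the 6 groups (x axis); circles are libraries, filled for day 3 and open for day 28, lines are means and bars SD (n = 3). AF4-MLL libraries lie between 32.5% and 38.7%, above all libraries of the other settings.

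Genes beside KMT2A on chromosome 11 were compared for AF4-MLL against MLL-AF4 cells, and 0 of 20 were called. With 0.142% of all genes called on day 3 and 0.0793% on day 28, few or none would be called among any 20 genes. Over the 10 tested genes on each side, which span 1.66 Mb, the median log2 difference was 0.06 on day 3 and -0.01 on day 28. The neighbours ranged from -0.59 to 0.64 (day 3) and from -0.50 to 0.68 (day 28), and 0 lay above KMT2A. At an unadjusted p under 0.05, 0 passed on day 3 and 1 on day 28, and DESeq2 called 0 on both days, with no adjusted p for 19 of 20 on day 3. The share of all genes at that unadjusted threshold is not given for these contrasts. AFF1 is the source of the AF4 part of both fusions, with most of its exons in the MLL-AF4 construct. AFF1 had 62.9 CPM in AF4-MLL and 61.9 CPM in MLL-AF4 cells on day 3, and 52.2 against 50.5 CPM on day 28. The AFF1 differences were 0.03 (95% interval -0.28 to 0.35) and 0.04 (-0.25 to 0.32), and AFF1 was called in 0 of the 12 contrasts. In the contrasts with co-expression cells KMT2A stood less apart from its neighbours. Against MLL-AF4 cells, 2 of the 20 neighbours lay above KMT2A on day 3 (up to 0.71) and 1 on day 28 (0.63). Against AF4-MLL cells, 0 lay below KMT2A on day 3. On day 28 FXYD6, named after its value was seen, lay below KMT2A at -0.90. FXYD6 was the 1 neighbour called (adjusted p = 0.049), where 1.69% of all genes were.

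**Figure D4:**
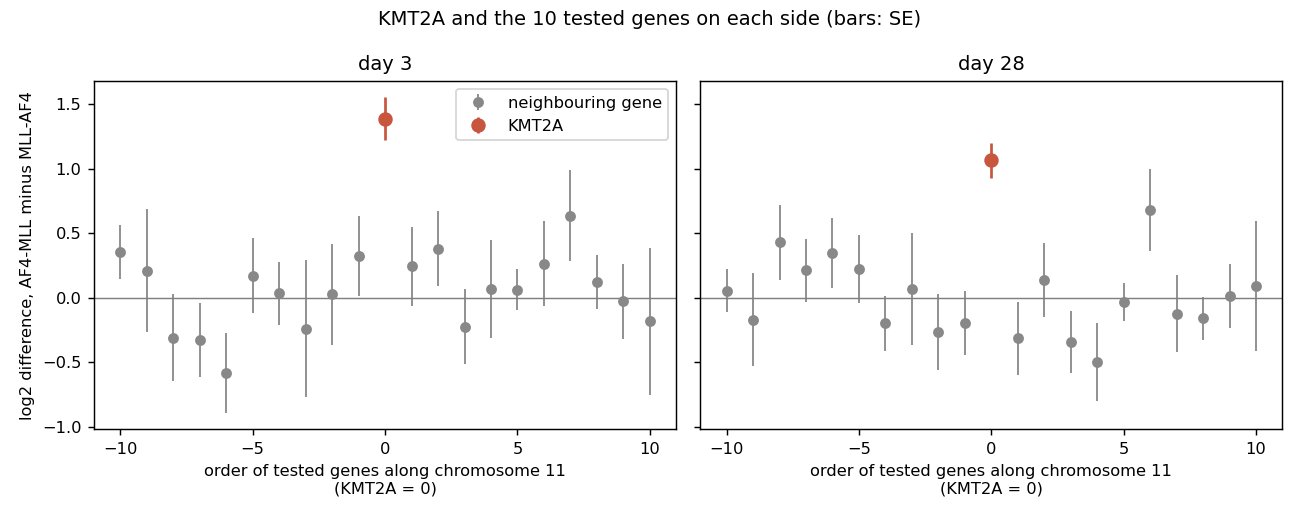
Log2 difference, AF4-MLL minus MLL-AF4 (y axis) for KMT2A (position 0) and the 10 tested genes on each side, in their order along chromosome 11 (x axis), on day 3 (left) and day 28 (right); bars are SE. KMT2A stands at 1.39 and 1.06, and no neighbour exceeds 0.68.

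KMT2B, the closest relative of KMT2A, showed no called difference. The AF4-MLL cells had 16.2 ± 3.4 CPM on day 3 and 19.1 ± 1.6 CPM on day 28. The corresponding levels of KMT2B were 13.0 ± 2.6 and 20.6 ± 2.9 CPM with MLL-AF4, and 14.9 ± 1.8 and 16.9 ± 3.6 CPM with co-expression. The AF4-MLL against MLL-AF4 differences were 0.30 on day 3 (95% interval -0.32 to 0.92) and -0.07 on day 28 (-0.52 to 0.38). With 9 to 43 counts per library, KMT2B gave wide intervals.

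KMT2C and KMT2D, the enhancer methyltransferases, also had no called difference between settings. Some of their groups did not overlap, as was so for 13.4% to 19% of all genes across the comparisons of settings. KMT2C had 32.7, 41.8 and 32.1 CPM in co-expression cells on day 3, above the 23.0, 27.5 and 27.0 CPM of AF4-MLL cells, a log2 difference of 0.48 (SE 0.20, adjusted p = 0.25). On day 28 all co-expression libraries (41.8, 41.1 and 54.5 CPM) lay above all MLL-AF4 libraries (33.8, 31.8 and 36.7 CPM), by 0.38 (SE 0.17, adjusted p = 0.35). The MLL-AF4 libraries of day 3 were the most scattered of any member, with 42.4, 13.95 and 23.1 CPM (SD 14.5). KMT2D had no called difference on day 3 (48.8 ± 6.7 CPM with AF4-MLL, 39.6 ± 5.4 CPM with MLL-AF4 and 46.4 ± 6.6 CPM with co-expression). All AF4-MLL libraries of that day (43.8, 56.4 and 46.2 CPM) lay above all MLL-AF4 libraries (43.5, 41.9 and 33.5 CPM), by 0.25 (SE 0.19, adjusted p = 0.72). On day 28 it had 48.8, 35.4 and 37.0 CPM in AF4-MLL cells against 48.6, 56.3 and 48.3 CPM in MLL-AF4 cells, a difference of -0.36 (SE 0.15, adjusted p = 0.49) with overlapping groups.

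KMT2E was the member with the smallest spread of group means, from 20.1 CPM in AF4-MLL cells on day 3 to 24.8 CPM in MLL-AF4 cells on day 28. Its 6 differences between settings lay between -0.32 and 0.29, and in each of them the 95% interval held 0.

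SETD1A and SETD1B, the catalytic subunits of the SETD1 complexes, had no called difference between settings. SETD1A was highest in co-expression cells, with 46.0, 50.7 and 43.0 CPM on day 3 and 54.5, 46.7 and 46.5 CPM on day 28. On each day all co-expression libraries lay above all AF4-MLL libraries (at most 40.6 CPM on day 3 and 42.6 CPM on day 28), by 0.24 (SE 0.16, adjusted p = 0.58) and 0.30 (SE 0.15, adjusted p = 0.39). Between these settings 16.5% of all genes had groups without overlap on day 3 and 16.8% on day 28. SETD1B pointed the other way from KMT2A on day 3, in a contrast where 14% of all genes had groups without overlap. It had 13.7, 10.1 and 13.1 CPM in AF4-MLL cells, below the 22.3, 13.95 and 16.2 CPM of MLL-AF4 cells. That difference of -0.46 (SE 0.31, 95% interval -1.06 to 0.15, adjusted p = 0.68) rested on 7 to 25 counts per library. As a share of the 6 members without KMT2A, SETD1B had 7.79% ± 1.43 in AF4-MLL cells over both days (n = 6) and 9.88% ± 1.66 in MLL-AF4 cells (exact permutation p = 0.035, adjusted 0.16). No share of any member, KMT2A included, passed the threshold after adjustment in the comparisons of settings or days. Among the members other than KMT2A the lowest unadjusted p in the exact permutation test was 0.025.

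Between day 28 and day 3, 0 members were called in any setting, where 0.606% of all genes were with AF4-MLL, 2.87% with MLL-AF4 and 0.606% with co-expression. At an unadjusted p under 0.05, 1, 2 and 1 members passed, beside 9.29%, 15.8% and 9.51% of all genes, while DESeq2 called 0 in each setting. KMT2C came nearest, in AF4-MLL cells, where the 3 libraries of day 28 (39.7, 43.6 and 37.7 CPM) lay above those of day 3 (23.0, 27.5 and 27.0 CPM). The KMT2C difference of 0.68 (SE 0.19, 95% interval 0.31 to 1.05) had an adjusted p of 0.057. Its 20 neighbours on chromosome 7 had a median of 0.15 in the same comparison, and 2 of them lay above it. In MLL-AF4 cells KMT2B went from 10.04, 13.95 and 15.03 CPM on day 3 to 22.3, 17.3 and 22.4 CPM on day 28, a difference of 0.64 (SE 0.30, adjusted p = 0.26), and KMT2D differed by 0.39 (SE 0.18, adjusted p = 0.27). KMT2A had day differences of 0.01 in AF4-MLL cells (95% interval -0.22 to 0.25), 0.34 in MLL-AF4 cells (-0.04 to 0.72) and 0.39 in co-expression cells (0.12 to 0.67, adjusted p = 0.23). The groups did not overlap for 1, 3 and 1 members, beside 14%, 20.4% and 14.2% of all genes. In MLL-AF4 and in co-expression cells all KMT2A values of day 28 lay above those of day 3, and neither difference was called.

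The change over time itself was compared between settings with interaction terms, and 0 members were called in any of the 3, beside 0.317%, 0.232% and 0% of all genes (AF4-MLL against MLL-AF4, co-expression against MLL-AF4, and co-expression against AF4-MLL cells). At an unadjusted p under 0.05 there were 1, 0 and 1 members, beside 9.75%, 9.73% and 5.05% of all genes, and DESeq2 called 0. For KMT2D the interaction of AF4-MLL against MLL-AF4 cells was -0.61 (SE 0.24, adjusted p = 0.34). For KMT2A the interaction of co-expression against AF4-MLL cells was 0.38 (SE 0.18, unadjusted p = 0.039, adjusted p = 0.955), and those of the other pairs were -0.32 and 0.06.

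The partners and opponents of the family were taken from fixed lists of 30 genes, of which 29 were tested. All 4 genes of the shared core (WDR5, RBBP5, ASH2L and DPY30) were tested and 0 were called in the 12 contrasts, where 0% to 2.87% of all genes were. In the core, 2 of 48 gene and contrast pairs had an unadjusted p under 0.05. In the contrasts where 0 members of the family were called, 5.05% to 15.8% of all genes had such a p. The core pairs lay in other contrasts, for which this share is not given. They were AF4-MLL against MLL-AF4 cells on day 3 and co-expression against AF4-MLL cells on day 28. Of 5 H3K4 demethylases 0 were called as well, with 1 of 60 pairs at an unadjusted p under 0.05. DESeq2 also called 0 in both lists, and gave no adjusted p for 21 of 48 pairs in the core and 22 of 60 among the demethylases. Median differences between settings ran from -0.22 to 0.10 in the core and from -0.29 to 0.05 in the demethylases, beside medians within 0.01 of 0 over all genes. Of 14 listed genes tied to some of the complexes and outside the shared core, 2 were called once each. These were contrasts where 1.81% (HCFC1) and 2.87% (NCOA6) of all genes were called. In this list 22 of 168 gene and contrast pairs had an unadjusted p under 0.05, some of them in contrasts for which the share of all genes is not given. HCFC1, a subunit of SETD1 and KMT2A complexes, was higher in co-expression than in MLL-AF4 cells on day 3 (93.2 ± 10.3 against 59.7 ± 3.6 CPM, log2 0.64, SE 0.15, adjusted p = 0.0041). Without replicate 3 of the MLL-AF4 cells its adjusted p was 0.051. NCOA6, a subunit of KMT2C and KMT2D complexes, was higher on day 28 than on day 3 in MLL-AF4 cells (17.5 ± 6.3 against 6.67 ± 1.29 CPM, log2 1.38, SE 0.37, adjusted p = 0.018) on 5 to 7 counts per library on day 3. This call was lost without replicate 1 or 2 of day 3 or replicate 2 or 3 of day 28, with log2 differences of 1.18 to 1.34, and with library size only (0.50, adjusted p = 0.25). DESeq2 called HCFC1 but 0 of these 14 listed genes in the contrast of NCOA6, where it gave no adjusted p for 8 of them.

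Among 6 tested H3K4 methyltransferases outside the family, PRDM9, which marks recombination sites in meiosis, was the 1 gene called. In this list 17 of 72 gene and contrast pairs had an unadjusted p under 0.05. The shares of all genes at that threshold given above cover only contrasts where 0 members of the family were called. Some of these pairs lie in other contrasts. PRDM9 had 190 ± 19.4 CPM in MLL-AF4 cells on day 3. It lay lower with AF4-MLL (127 ± 7.4 CPM, log2 -0.58, adjusted p = 0.0043), where 0.142% of all genes were called. It was also lower in co-expression cells (115 ± 8.8 CPM, log2 -0.72, adjusted p = 4.2e-06), beside 1.81% of all genes. In MLL-AF4 cells it fell by 0.95 on the log2 scale to 99.1 ± 7.6 CPM on day 28 (adjusted p = 1.9e-11), beside 2.87% of all genes called. Its day 28 level with co-expression (90.6 ± 4.8 CPM) was below that with AF4-MLL (124 ± 9.9 CPM, log2 -0.44, adjusted p = 0.021), beside 1.69% of all genes called. Leaving out AF4-MLL replicate 1 (-0.54) or MLL-AF4 replicate 1 or 2 (-0.53 and -0.54) ended the AF4-MLL against MLL-AF4 call of day 3. Leaving out AF4-MLL replicate 1 or 2 (-0.37 and -0.46) or co-expression replicate 1, 2 or 3 (-0.46, -0.45 and -0.41) ended the day 28 call. In all, the first call was made in 9 of 14 alternatives and was also lost with library size only (-0.41) and without the filter (-0.50), and the day 28 call was made in 6 of 14 and was also lost with library size only (-0.47), without the filter (-0.43) and with DESeq2 (-0.45). PRDM9 has a close copy, PRDM7, with which reads may be shared.

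Over the 18 libraries, the genes whose log2 CPM followed KMT2A most closely among the 15389 whose mean count was 10 or more were AC010619.2 (Pearson r = 0.84), SNAPC4 (0.83), KCNT1 (0.80), POU6F1 (0.78) and PRRC2B (0.78). SNAPC4, a subunit of the factor for small nuclear RNA genes, KCNT1, a potassium channel, and PRRC2B lie on chromosome 9, and POU6F1, a homeobox factor, on chromosome 12. AC010619.2 was itself called higher in AF4-MLL than in MLL-AF4 cells, by 1.00 on day 3 (adjusted p = 2.2e-10) and 1.12 on day 28 (adjusted p = 1.7e-16). It was also called higher in co-expression than in MLL-AF4 cells (0.73 and 0.59). Against AF4-MLL cells, co-expression cells had -0.27 on day 3, not called, and -0.53 on day 28, called. The other genes listed with it for KMT2A were called in no contrast. The best match reached r = 0.80 for KMT2B (RF00019), 0.84 for KMT2C (TXNIP), 0.81 for KMT2D (DMKN), 0.74 for KMT2E (CASKIN1), 0.83 for SETD1A (TRPM7) and 0.83 for SETD1B (IDH1). These correlations are the highest of many values over libraries that share depth and day. They, and the calls of a gene picked by them, are given as a description. Between the members themselves r ran from -0.49 (KMT2A and SETD1B) to 0.28 (KMT2A and KMT2B).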

How the data were processed

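The authors deposited a table of raw read counts per gene, whole numbers without normalization, with 1 column per library. The submitters' processing notes name bcl2fastq, Bowtie2, HTSeq and the build GRCh38. Versions, the region counted, the use of strand and the handling of duplicates and of reads with several matches are not given in the sources used here, and each of them could change a gene's count. Coordinates and promoters came from RefSeq (GRCh38.p14).

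The analysis used edgeR 4.0.16 under R 4.3.3: filterByExpr (minimum count 10, minimum total 15), TMM, and quasi-likelihood F tests in 1 fit of 18 libraries and 6 groups with 12 contrasts, adjusted by Benjamini-Hochberg over 17660 genes. Shares were compared with exact two-sided permutation tests stratified by day or setting. The scripts were tested on simulated data. Alternatives included DESeq2 1.42.0, other scalings and filters, and leaving out each library. The members are named in every contrast, of the lists only called genes, and by correlation the 5 genes closest to KMT2A and 1 for each other member. AFF1 was added because it is the other gene in the constructs. The members and lists were chosen with earlier results of these data known. The study describes its replicates as biological, and neither it nor the labels say whether they were separate cultures, so p-values measure the spread between these libraries. Between replicates the chi-square per degree of freedom ran from 1.08 to 3.02 over 18 pairs, so no columns were identical. Values near 1 leave little spread beyond counting.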

Additional observations from a re-analysis of the deposited data

Results flagged for a closer look

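PRDM9 changed differently over time in AF4-MLL and MLL-AF4 cells, a contrast in which 0.317% of all genes were called. The interaction was 0.92 on the log2 scale (SE 0.16, adjusted p = 2.5e-04 in edgeR's quasi-likelihood test). PRDM9 went from 190 to 99.1 CPM between day 3 and day 28 in MLL-AF4 cells and from 127 to 124 CPM in AF4-MLL cells. The call held in 19 of 20 alternatives and was lost with library size as the only scaling (0.72, adjusted p = 0.17).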

How the results depend on the processing

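KMT2A was called for AF4-MLL against MLL-AF4 cells in 14 of 14 alternatives on each day (log2 1.23 to 1.57 on day 3, 1.02 to 1.14 on day 28), and that between co-expression and AF4-MLL cells on day 3 in 14 of 14 (-0.95 to -0.74). The day 3 difference between co-expression and MLL-AF4 cells was called in 0 of 14 (0.41 to 0.70, adjusted p from 0.054 to 0.41). On day 28, co-expression against MLL-AF4 cells kept its call in 10 of 14. It was lost, with 0 members called, with library size only (0.54) and with DESeq2 (0.60), and 1 library left out gave 0.43 to 0.72 and 0 to 1 members called. Co-expression against AF4-MLL cells on day 28 kept its call in 7 of 14. It was lost, with 0 members called, with library size only (-0.49), without the filter (-0.44) and with DESeq2 (-0.46), and 1 library left out gave -0.63 to -0.34 and 0 to 1 members called.

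Library size as the only scaling moved the median of all genes between days by -1.06 in AF4-MLL, -0.87 in MLL-AF4 and -1.07 in co-expression cells, so that day differences are given relative to these. Under it 6, 6 and 7 members were called and signs turned: -1.08 for KMT2A, -0.80 for KMT2B, -0.86 for KMT2E, -0.99 for SETD1A and -0.90 for SETD1B in AF4-MLL cells; -0.54 for KMT2A, -0.55 for KMT2C, -0.50 for KMT2D, -0.80 for KMT2E and -0.68 for SETD1A in MLL-AF4 cells; and -0.70 for KMT2A, -0.88 for KMT2B, -0.73 for KMT2C, -1.06 for KMT2D, -0.97 for SETD1A and -0.98 for SETD1B in co-expression cells. In AF4-MLL cells a loess offset (0.71) and a fit of only the groups compared (0.69) called KMT2C between days, 1 member each. Of 1095 alternative values of the 6 other members 18 were called, 16 of them with library size only, and 77 changed sign. The cause of each lost or gained call beyond the shifted median was not tested.

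Leaving out 1 library moved the KMT2A share differences to 16.1 to 17.8 points for AF4-MLL against MLL-AF4 cells and 4.10 to 5.80 for co-expression against MLL-AF4 cells, some of which then passed 0.05 after adjustment, and 0 to 1 other members passed for shares between those settings and between days. Replicate numbers did not pair the libraries: deviations of same-numbered libraries correlated at -0.09 to 0.04 over 45 pairs, with 0 over 0.1, and 2 of 18 libraries correlated best with their own number. The replicate block changed no call of the members (KMT2A 1.39 and 1.06 in AF4-MLL against MLL-AF4 cells), and gave share differences an exact p of 0.03125 (adjusted 0.25), the smallest that the blocked test of settings allows. The 9 to 43 counts per library on KMT2B and 7 to 35 on SETD1B limit what could be seen for them.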
